A study of Populus davidiana with 6 samples.

Results

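The loci described here carry a reference identifier beginning with POPTR_ and span at least 15000 bases in the deposited tables, from the lowest start to the highest end of their transcripts. There were 340 such loci among 36380 loci with a POPTR_ identifier and 40537 loci in all, and 287 of them averaged 1 FPKM or more across the 6 samples. FPKM counts fragments per kilobase of a transcript relative to the fragments sequenced, so levels are given per length, and the values of all transcripts of a locus were summed. The working name of this set was long genes, and the tables went against that name for most members, so they are called long-span loci below.

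Leaf RNA came from the aspen Populus davidiana, in the cultivar Palgong1, labelled as drought sensitive and at the seedling stage. The plants had been propagated by internode culture on sugar-containing MS medium with naphthalene acetic acid and were about 6 weeks old. In the air-dried group they were lifted from the medium, rinsed in sterile water and exposed to air for some 10 min, and the other group were controls, whose handling the labels do not describe further. Each group held 3 samples, and the labels do not say that they came from separate plants, so the spread behind each p-value is that between these samples and could be technical.

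In plants most genes are compact, and genes that stretch over many kilobases usually owe their length to introns, which are transcribed and then spliced out of the messenger RNA. A long gene therefore takes RNA polymerase longer to transcribe from end to end, so new full-length transcript appears later after induction than for a compact gene. The span of a locus also depends on the transcript models given to it, because a newly assembled transcript that joins distant exons stretches the locus across everything between them. The files give the ends of each transcript but not its exons, no gene names, and no genome or annotation was used here, so neither intron lengths nor gene functions are stated and no sequence is shown. The leaf label could not be checked against marker genes for the same reason.

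Long span was mostly not a property of the annotated gene. In 71 of the 287 expressed loci the transcripts marked as known together reached 15000 bases, and these are called annotated long loci. In another 137 the known transcripts were shorter and only newly assembled transcripts carried the locus past 15000 bases, and these are called extended loci. The remaining 79 held no known transcript at all, only new ones filed under a revised reference identifier. The 53 long-span loci under 1 FPKM comprised 4, 22 and 27 of these classes in the same order, and 23 of the 53 were listed at 0 in all samples. Each of the 287 had at least 1 single transcript of 15000 bases or more, but of the 1229 such transcripts in these loci only 79 were marked as known.

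The classes had different shapes. Annotated long loci spanned 15049 to 38179 bases with a median of 17471, and their longest known transcript had a median length of 17249 bases, so locus and annotated model nearly coincided. Extended loci spanned up to 298521 bases with a median of 28026, around known transcripts with a median length of 3352 bases. The known transcripts covered under 50% of the span in 116 of the 137 and under 10% in 74. New transcripts reached a median of 24911 bases beyond the known ones, although the smallest extension was 83 bases, so some extended loci differ little from annotated long ones. Loci without a known transcript spanned up to 302591 bases with a median of 43102, and 69 of the 79 consisted of 1 transcript.

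**Figure D1:**
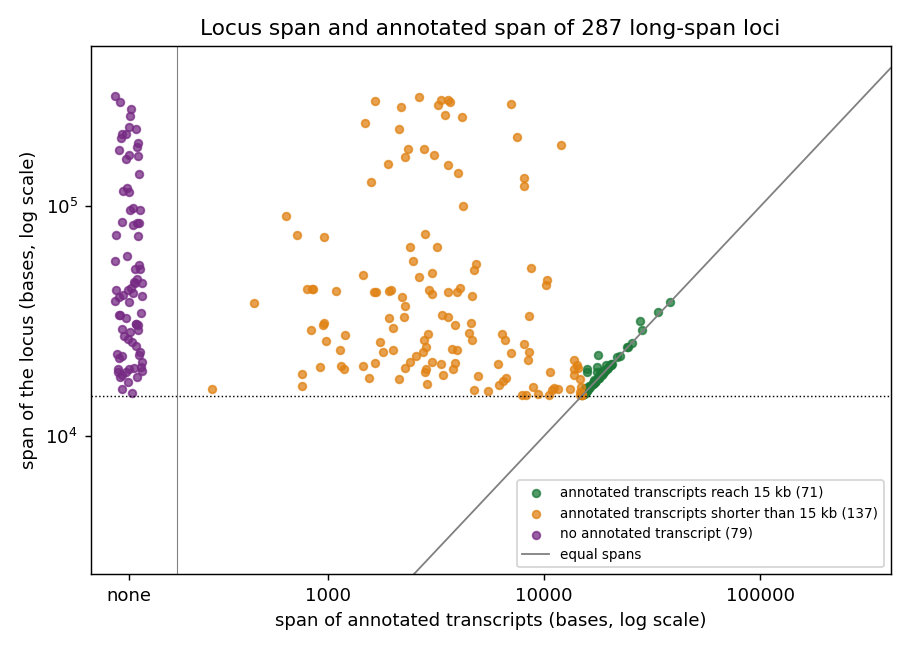
Span of each of 287 expressed long-span loci (vertical, bases, log scale) against the span of its annotated transcripts (horizontal, bases, log scale; loci without one stand at the left). Each point is a locus, the dotted line marks 15000 bases and the grey line equal spans. The 71 annotated long loci follow the line, while most of the 137 extended loci lie far above it.

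Other loci lay inside the spans of the newly built models, but hardly inside the annotated ones. Of the 71 annotated long loci, 70 contained no other locus. Another locus lay wholly inside 101 of the 137 extended loci and 72 of the 79 loci without a known transcript, with up to 41 loci inside a single span. A locus on the opposite strand overlapped 4 annotated long loci, 106 extended loci and 74 loci without a known transcript. In 19 extended loci and 27 without a known transcript the opposite-strand locus shared at least 90% of the longer span, so that the models mirrored each other, and this was seen in 0 of the 71 annotated long loci. In 39 extended loci the end lying farther from the known transcripts fell inside a known transcript of another locus, in 35 of them only of one on the opposite strand. Strand is not kept by the library kit, so reads from overlapping loci cannot be fully told apart.

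Long-span loci were present on all 19 numbered chromosomes, from 6 on chromosome 18 to 35 on chromosome 1, and 29 of the 287 lay on other genome sequences. Of these 29, 2 were annotated long loci, 11 extended loci and 16 loci without a known transcript.

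The transcripts that carried the expression also differed between classes. In annotated long loci, which held a median of 10 transcripts and up to 57, transcripts of 15000 bases or more carried a median of 96.2% of the locus FPKM and most of it in 46 of 71. The known transcripts themselves carried most of it in 9 of 71, with a median of 0.91%, so newly assembled variants held most of the value. In extended loci the transcripts of 15000 bases or more carried a median of 37.6% and known transcripts 21.8%. The known, shorter transcripts held most of the FPKM in 42 of these 137 loci, and in 22 the long transcripts held under 5%. Over all 287 loci the summed FPKM in transcripts of 15000 bases or more had a mean share of 75.8% over the 6 samples, from 57.5% to 99.7%, and single loci of extreme value weigh heavily in such a sum.

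Control replicate 1 stood apart at long-span and at shorter loci. Summed over the 287 loci it held 4109100 FPKM, against 25748 to 75365 in the other 5 samples, and 4088400 of this lay in loci without a known transcript. At loci of 1000 to under 15000 bases the sum was 14240000 FPKM in control replicate 1 and 681790 to 866690 FPKM in the others. Their median level was 12.7 FPKM in control replicate 1 and 12.2 to 12.9 FPKM in the others, so the excess was in the sum and not in the median. At extended loci the sum was 18404 FPKM in control replicate 1 and 16301 to 18122 FPKM in the others. At annotated long loci the Pearson correlation of log2(FPKM + 1) across loci was 0.856 to 0.908 between control replicate 1 and another sample and 0.987 to 0.997 among the other samples. At loci spanning 1000 to under 15000 bases these ranges were 0.905 to 0.937 and 0.949 to 0.987, over loci that are not independent replicates. A single annotated long locus on chromosome 8, described below, was listed at 870 FPKM in control replicate 1 and at 11.3 to 29.6 FPKM elsewhere. Its part in the correlations of its class was not tested. The median level of annotated long loci was 10.7 FPKM in control replicate 1 and 11.7 to 12.4 FPKM in the other samples. The files hold no read totals, so sequencing depth is unknown and counting intervals cannot be given.

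**Figure D2:**
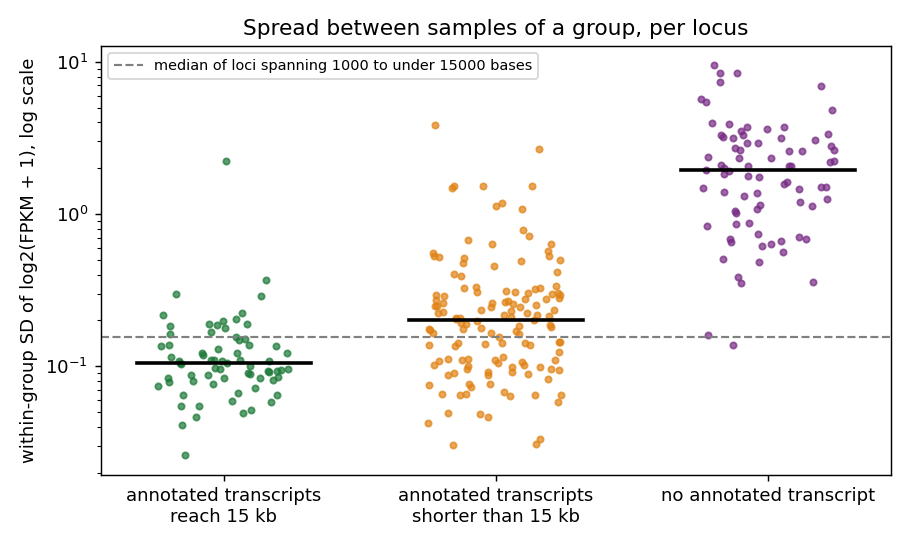
Within-group standard deviation of log2(FPKM + 1) for each locus (vertical, log scale; mean variance of both groups, 3 samples each) in the 3 classes of long-span loci. Each point is a locus and each black bar a class median, 0.10 for annotated long, 0.20 for extended loci and 1.96 for loci without an annotated transcript, and the dashed line is the median of 0.16 of loci spanning 1000 to under 15000 bases.

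Among the 3 classes, replicates were closest at annotated long loci and widest apart at loci without a known transcript. The median standard deviation of log2(FPKM + 1) within groups was 0.10 at annotated long loci (quartiles 0.08 and 0.14), 0.20 at extended loci (quartiles 0.11 and 0.31) and 1.96 at loci without a known transcript (quartiles 1.03 and 3.11). Loci of 1000 to under 15000 bases with a POPTR_ identifier and at least 1 FPKM, 17435 in number, had a median of 0.16. Within the air-dried group alone, which does not contain control replicate 1, the medians were 0.08, 0.12 and 1.22 in the same order of classes and 0.11 at the shorter loci. Loci with an annotated span of 10000 to under 15000 bases were close to annotated long loci. Their median was 0.11 within groups and 0.07 within the air-dried group, so close replicates were not particular to annotated long loci. These differences between classes were not tested.

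Air-dried and control leaves were compared to see which loci differed after the exposure to air that the study used as drought stress. Few long-span loci differed. Of the 287, 4 rose and 6 fell, together 3.48%, where 6.78% of all 22835 tested loci were called (4.16% rose and 2.61% fell). Under quantile normalization 2 rose and 5 fell, all among these 10. Among loci of 1000 to under 15000 bases 7.33% were called, and 7.71% when these were weighted to the mean FPKM of the long-span loci in 5 bins with lower edges of 1, 3, 10, 30 and 100 FPKM. The median log2 fold change was 0.03 over long-span loci and 0.01 over all tested loci. Limma was run on log2(FPKM + 1) values, with its variance trend and with Benjamini-Hochberg adjusted p-values over every tested locus, and loci under 0.05 were called. On this scale the change of a weakly expressed locus is understated.

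The classes contributed unequally to the 10 calls. Extended loci gave 9 of them, 4 rises and 5 falls among 137 loci (6.57%), beside 7.68% at shorter loci weighted to the same mean FPKM. Annotated long loci gave 1 fall among 71 (1.41%), beside 7.08% at shorter loci weighted in the same way. Loci without a known transcript gave 0 among 79 by limma, with 5 (6.33%) at an unadjusted p under 0.05, and no other tool was run. Shorter loci weighted in the same way gave 8.34% called and 25.3% at an unadjusted p under 0.05, which 22.0% of all tested loci reached. The match was loose in the top bin, of 100 FPKM or more, where the median was 184 FPKM for shorter loci and 612 FPKM for 31 loci of this class. The median SD of this class within groups was 1.96, so the 0 does not show that these loci were unchanged. These shares rest on small counts, and the differences between them were not tested. Without control replicate 1, 15 long-span loci (5.23%) were called, 9 of the 10 among them, beside 7.61% of all tested loci. Of these 15, 2 were annotated long, 11 extended and 2 without a known transcript. Leaving out another sample lowered the count by over 1.5 times in 4 cases, to 6 without control replicate 2 and to 4, 4 and 2 without air-dried replicates 1, 2 and 3. These were 2.09%, 1.39%, 1.39% and 0.697% of long-span loci. The shares of all tested loci fell too, to 2.77%, 2.3%, 1.65% and 1.7% in the same fits.

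**Figure D3:**
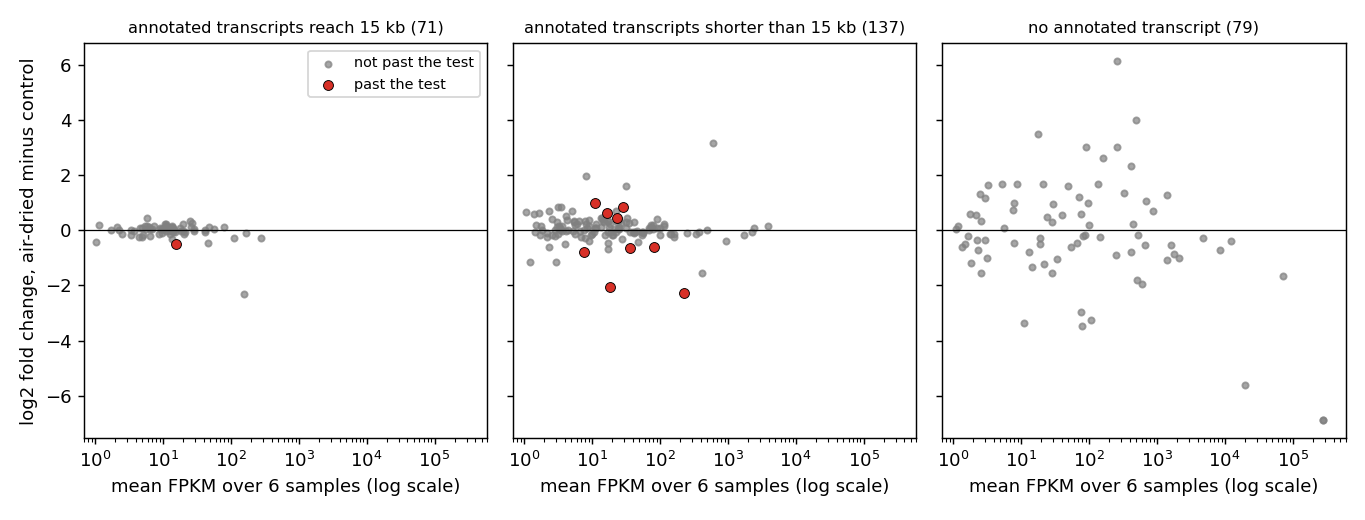
Log2 fold change of log2(FPKM + 1), air-dried minus control (vertical), against mean FPKM over 6 samples (horizontal, log scale) for 71 annotated long loci, 137 extended loci and 79 loci without an annotated transcript. Each point is a locus, and red points are the 10 past an adjusted p of 0.05 by limma, of which 9 are extended loci.

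Annotated long loci changed little. Their log2 fold changes had quartiles of -0.08 and 0.11, and 61 of 71 (85.9%) lay within 0.25 of no change, where 62.9% of loci of 1000 to under 15000 bases did, or 63.9% weighted to the same mean FPKM. Loci with an annotated span of 10000 to under 15000 bases were close to them, with 81.1% within 0.25. The median absolute log2 fold change was 0.10, against 0.18 for all the shorter loci and 0.12 for loci with an annotated span of 10000 to under 15000 bases. An unadjusted p under 0.05 was reached by 9 of 71 (12.7%), where 22.0% of all tested loci and 23.6% of the shorter loci reached it. All 3 air-dried values were above, or all below, the 3 control values in 16 of 71 (22.5%), where 30.4% of all tested loci had such groups. Only 1 annotated long locus had a change of at least 1 on the log2 scale, with a far higher value in control replicate 1 than in any other sample. It lay on the minus strand of chromosome 8 (5008167 to 5025271) and was listed at 870, 29.6 and 13.5 FPKM in control replicates 1, 2 and 3 and at 11.3, 13.0 and 16.8 FPKM in the air-dried samples. The groups overlapped there (limma log2 fold change -2.33, SE 1.56, adjusted p = 0.448).

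The annotated long locus that fell lay on the plus strand of chromosome 11 (15379118 to 15394297), with a known transcript of 15180 bases, close to the 15000 base limit. It stood at 18.0, 18.7 and 18.9 FPKM in control replicates 1, 2 and 3 and at 12.8, 13.0 and 13.1 FPKM in the 3 air-dried samples in turn. The groups did not overlap and varied little, and the air-dried mean was 0.70 of the control mean (limma log2 fold change -0.49, SE 0.06, adjusted p = 0.0109, and 0.00262 to 0.655 among 19 alternatives). A new transcript of 11686 bases went from 7.32, 12.2 and 14.2 to 7.20, 8.02 and 7.03 FPKM, and the known transcript from 10.7, 6.47 and 4.68 to 5.58, 5.03 and 6.02 FPKM. Neither transcript passed when transcripts were tested singly (limma adjusted p = 0.554 and 0.748), so the fall was called only in their sum. Among the alternatives that ended the call were the fits without control replicate 2 (limma adjusted p = 0.0579), without each of the air-dried samples (0.0607, 0.0747 and 0.0687) and with known transcripts alone.

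The annotated long loci described next were chosen after their values were seen, by level, by length and by unadjusted p. The highest mean level was on the plus strand of chromosome 16 (1969263 to 1986213), with 276, 299 and 355 FPKM in control and 234, 250 and 288 FPKM in air-dried leaves. Next came a locus on the minus strand of chromosome 6 (2421560 to 2437592), with 152, 174 and 194 FPKM in control and 143, 163 and 177 FPKM in air-dried leaves. The groups overlapped at both, and neither passed the test (limma adjusted p = 0.33 and 0.679). These levels lay far above the class median of 12.4 FPKM.

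None of the 4 longest annotated models passed the test. On the plus strand of chromosome 17 (5042092 to 5080270), a locus with 42 transcripts and a known one of 38036 bases stood at 8.90, 10.3 and 8.26 FPKM in control and 9.31, 9.81 and 9.23 FPKM in air-dried leaves. On the plus strand of chromosome 8 (6205460 to 6240207), a locus whose known transcript spanned 33617 bases stood at 37.4, 46.4 and 45.7 FPKM in control and 36.6, 42.3 and 44.4 FPKM in air-dried leaves. In both loci the groups overlapped, with log2 fold changes of 0.05 (SE 0.10) and -0.07 (SE 0.12). The next in length, on chromosome 4 (21922896 to 21951988), had wider controls, at 7.54, 11.9 and 13.6 FPKM, and 11.4, 12.4 and 11.7 FPKM in air-dried leaves (log2 fold change 0.13, SE 0.21). The fourth, on chromosome 2 (8193382 to 8225058), had 10.2, 13.4 and 15.6 FPKM in control and 12.5, 14.2 and 15.2 FPKM in air-dried leaves (log2 fold change 0.11, SE 0.17). Groups overlapped there too.

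Nearest to the threshold after the called locus was one on the minus strand of chromosome 13 (13929382 to 13948236). It had 20.2, 23.1 and 22.0 FPKM in control and 29.0, 26.3 and 28.9 FPKM in air-dried leaves (limma log2 fold change 0.36, SE 0.08, adjusted p = 0.062). A locus on the minus strand of chromosome 4 (20882342 to 20898564) had 119, 133 and 119 FPKM in control and 101, 101 and 103 FPKM in air-dried leaves (limma log2 fold change -0.27, SE 0.07, adjusted p = 0.0904). In both the groups did not overlap, yet neither passed the adjusted threshold.

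**Figure D4:**
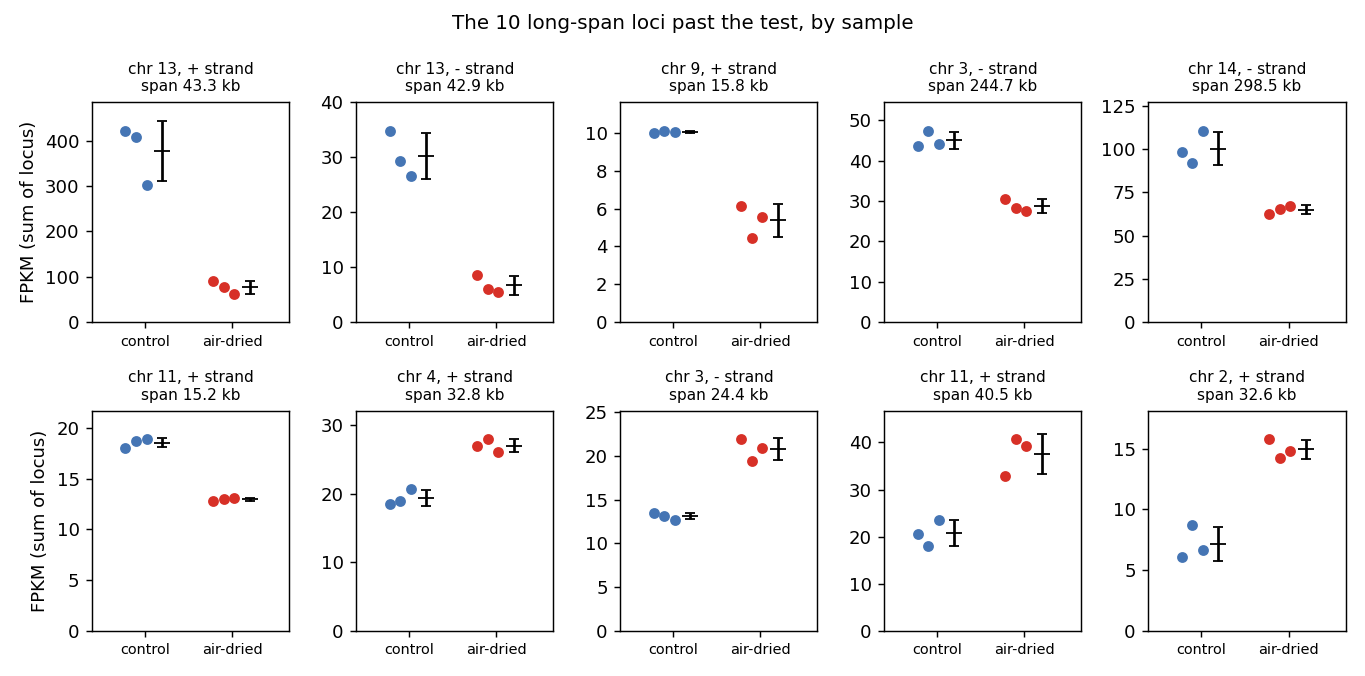
FPKM summed over the transcripts of each of the 10 called long-span loci (vertical, from 0) in 3 control (blue) and 3 air-dried (red) samples, ordered by log2 fold change from -2.28 to 0.99. Points are samples and black bars are the mean with 1 SD, and in every panel the groups do not overlap.

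The largest falls were a mirrored pair of extended loci on chromosome 13. POPTR_0013s10350.r1, on the plus strand (10469858 to 10513159), stood at 422, 409 and 301 FPKM in control replicates 1, 2 and 3 and at 90.2, 78.2 and 61.8 FPKM in the 3 air-dried samples in turn. The means were 377 ± 66.1 and 76.7 ± 14.2 FPKM (SD, n = 3 per group), 4.92 times apart (limma log2 fold change -2.28, SE 0.20, adjusted p = 0.00464). POPTR_0013s10370.r1, on the minus strand (10471259 to 10514111), stood at 34.9, 29.2 and 26.7 FPKM in control and 8.61, 5.995 and 5.42 FPKM in air-dried leaves. The means were 30.3 ± 4.18 and 6.67 ± 1.7 FPKM, 4.53 times apart (limma log2 fold change -2.04, SE 0.19, adjusted p = 0.00534). Every air-dried value of the pair lay far below every control value.

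Both known transcripts of this pair are short, 1956 and 1921 bases, and lie at opposite ends of nearly the same stretch. Most of the FPKM lay in new transcripts that run from one end to the other. The new transcript of 43302 bases on the plus strand stood at 291, 292 and 281 FPKM in control and 74.2, 76.2 and 61.0 FPKM in air-dried leaves (limma over transcripts, log2 fold change -2.02, adjusted p = 0.00575). That of 42853 bases on the minus strand stood at 32.2, 28.2 and 23.6 FPKM in control and 7.68, 5.995 and 5.13 FPKM in air-dried leaves (log2 fold change -2.00, limma adjusted p = 0.0229). A further new transcript of 42921 bases on the plus strand was uneven, at 129, 112 and 14.6 FPKM in control and 16.0, 0.103 and 0.00037 FPKM in air-dried leaves, and did not pass. The first 2 transcripts were the only called ones among 569 tested transcripts of long-span loci (0.351%), beside 0.696% of all 42517 transcripts tested. An unadjusted limma p under 0.05 was reached by 47 of the 569 (8.26%), a lower share than 4680 of all 42517. The difference between these shares was not tested. With known transcripts alone both locus calls ended (limma log2 fold change -1.40, adjusted p = 0.275, and -1.21, adjusted p = 0.195), with adjusted p from 0.000913 to 0.275 and from 0.00107 to 0.195 among 19 alternatives. Each call held under the other 18. Since strand was not marked and the spans overlap, the pair cannot be taken as separate falls.

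The other falls at extended loci were smaller. On the plus strand of chromosome 9 (7603048 to 7618866), a locus with 7 transcripts stood at 10.0, 10.1 and 10.0 FPKM in control and 6.15, 4.43 and 5.55 FPKM in air-dried leaves (limma log2 fold change -0.80, SE 0.12, adjusted p = 0.0209). Nearly all of this lay in a new transcript of 4898 bases, at 10.0, 8.82 and 9.64 FPKM in control and 6.07, 4.34 and 5.22 FPKM in air-dried leaves. The transcript of 15819 bases that made the locus long stayed at or under 0.41 FPKM in every sample. The 4898-base transcript did not pass when tested singly (limma adjusted p = 0.197). Alternatives that ended the call included those without control replicate 2 or 3 (limma adjusted p = 0.0889 and 0.0713) and without air-dried replicate 2 or 3 (0.0562 and 0.0923), in a range from 0.00835 to 0.0923 over 18 alternatives.

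A locus on the minus strand of chromosome 3 (11326166 to 11570871) contained 35 other loci within its 244706 bases. It stood at 43.5, 47.4 and 44.0 FPKM in control and 30.6, 28.3 and 27.4 FPKM in air-dried leaves (limma log2 fold change -0.63, SE 0.07, adjusted p = 0.00979). Here 91.3% of the FPKM lay in the transcript of full span, and the known transcript of 4167 bases held the rest. The groups did not overlap. Among those that ended this call were the fits without air-dried replicate 2 or 3 (limma adjusted p = 0.0711 and 0.0629) and with known transcripts alone (0.397), and the lowest value over 19 alternatives was 0.00216.

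On the minus strand of chromosome 14 (6881679 to 7180199), a locus of 298521 bases with 34 others inside stood at 98.2, 91.9 and 111 FPKM in control and 62.4, 65.1 and 67.3 FPKM in air-dried leaves (limma log2 fold change -0.62, SE 0.09, adjusted p = 0.0192). The sum was steady while its parts were not. The known transcript of 2634 bases was listed at 98.2, 91.6 and 8.48 FPKM in control replicates 1, 2 and 3, and the new transcript of full span at 102 FPKM in control replicate 3 alone among controls. In air-dried replicates 2 and 3 the new transcript was listed at 25.98 and 42.5 FPKM and the known one at 39.1 and 24.8 FPKM. The division of FPKM between transcripts thus varied between replicates of a group far more than the locus sum. The call ended, among other alternatives, with known transcripts alone (limma log2 fold change -0.14, adjusted p = 0.956), under quantile normalization (adjusted p = 0.25) and without any one air-dried sample (0.085, 0.108 and 0.0863), and the lowest value over 19 alternatives was 0.00826. Over all extended loci the share of FPKM in transcripts of 15000 bases or more had a median SD within groups of 9.71 percentage points.

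The 4 rises were all at extended loci, and most of their FPKM lay outside the long transcript. POPTR_0002s08040.r1, on the plus strand of chromosome 2 (5531341 to 5563896), stood at 6.06, 8.70 and 6.63 FPKM in control replicates 1, 2 and 3 and at 15.8, 14.3 and 14.8 FPKM in the 3 air-dried samples in turn. The groups did not overlap, and the SDs were 1.39 and 0.764 FPKM around means 2.1 times apart (limma log2 fold change 0.99, SE 0.14, adjusted p = 0.0169). Its known transcript of 1921 bases held 97.9% of the FPKM, and this was the single long-span locus called with known transcripts alone (log2 fold change 0.93, limma adjusted p = 0.0413, and 0.00692 to 0.0931 among 19 alternatives). Alternatives that ended the call with all transcripts included those without control replicate 3 (limma adjusted p = 0.0628) and without each air-dried sample (0.0809, 0.0871 and 0.0873). POPTR_0011s09990.r1, on the plus strand of chromosome 11 (12399163 to 12439612), stood at 20.6, 18.0 and 23.6 FPKM in control and 32.8, 40.7 and 39.2 FPKM in air-dried leaves, with means 1.81 times apart (limma log2 fold change 0.83, SE 0.13, adjusted p = 0.0258). Its call ended under 8 of 19 alternatives, among them the removal of any one sample other than control replicate 3 (limma adjusted p from 0.056 to 0.123), and the lowest value was 0.00632.

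The remaining rises were alike in this. One on the minus strand of chromosome 3 (10408617 to 10433051) stood at 13.4, 13.2 and 12.7 FPKM in control and 21.9, 19.4 and 20.9 FPKM in air-dried leaves (limma log2 fold change 0.62, SE 0.07, adjusted p = 0.00972). Its long transcript, of 24435 bases, held 5.30% of the FPKM. Its call was ended by, among others, the fits without air-dried replicate 1 or 3 (limma adjusted p = 0.0503 and 0.0658) and with known transcripts alone (0.41), and the lowest value over 19 alternatives was 0.00395. Another on the plus strand of chromosome 4 (22034057 to 22066886) stood at 18.6, 18.9 and 20.7 FPKM in control and 27.0, 28.0 and 26.1 FPKM in air-dried leaves (limma log2 fold change 0.46, SE 0.07, adjusted p = 0.0221). Its transcript of 32830 bases was listed at 10.1 FPKM in control replicate 3 and 4.94 FPKM in air-dried replicate 2, and at 0.473 FPKM or less in the other 4 samples. Among the alternatives that ended this call were those without control replicate 2 (limma adjusted p = 0.0901), without each air-dried sample (0.0925, 0.122 and 0.0902), under quantile normalization (0.0799) and with known transcripts alone (0.214), and the lowest value over 19 alternatives was 0.0066. At both loci every air-dried value lay above every control value.

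The share of called loci was lower with each step of span up to 20000 bases. By locus span it was 9.80% at 1000 to under 3000 bases, 6.31% at 3000 to under 6000, 4.81% at 6000 to under 10000, 2.65% at 10000 to under 15000 and 1.90% at 15000 to under 20000 bases. It was 5.36% at 20000 to under 50000 bases and 2.86% at 50000 bases or more, with 112 and 70 loci. By the span of annotated transcripts it was 9.62%, 6.33%, 4.64%, 3.03% and 1.72% over the first 5 steps and 0 of 13 loci at 20000 to under 50000 bases, where 1 had an unadjusted p under 0.05. The median absolute log2 fold change went from 0.23 at 1000 to under 3000 bases of annotated span to 0.08 at 20000 to under 50000 bases, and the median SD within groups from 0.19 to 0.11. Median levels were 11.6 to 13.6 FPKM in these 6 steps. The steps also differed in transcripts per locus, with medians from 2 to 15, and the part of this in the shares was not tested.

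**Figure D5:**
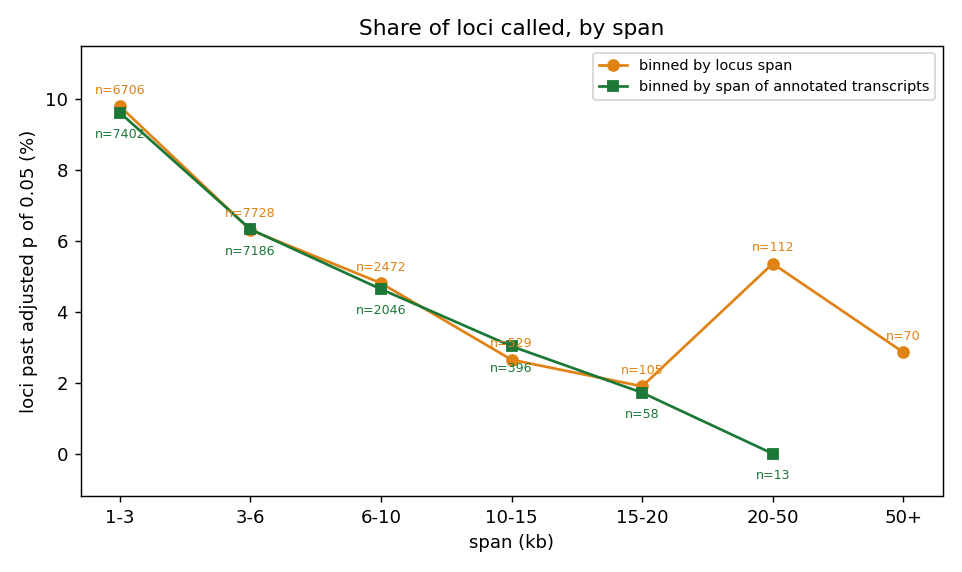
Percentage of tested loci with a POPTR_ identifier past an adjusted p of 0.05 by limma (vertical), by span in kilobases (horizontal), with loci binned by locus span (orange) or by the span of annotated transcripts (green). The number of loci stands at each point, and the share goes from 9.80% at 1 to 3 kb to 1.90% at 15 to 20 kb by locus span and from 9.62% to 1.72% by annotated span.

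Among long-span loci the 5 highest mean levels belonged to loci without a known transcript, with most of the FPKM in control replicate 1. Those on the plus strand of chromosome 12 (232414 to 270927) and on the plus strand of chromosome 4 (21757296 to 21810775) were each listed at 1690000 FPKM in control replicate 1 and at 0 in the other 5 samples. One on the plus strand of chromosome 1 (43920647 to 44169444) was listed at 121360 FPKM in control replicate 1 and at 0 elsewhere. On the minus strand of scaffold_113 (28470 to 48252) a locus was listed at 422970 FPKM in control replicate 1, 13579 FPKM in air-dried replicate 1 and 0 elsewhere. The fifth, on the plus strand of chromosome 4 (6139442 to 6156685), had values in every sample, 63250, 1780 and 152 FPKM in control and 5645, 960 and 1459 FPKM in air-dried leaves. A value of 0 in these files can be a failed estimate, so no fold is given for the loci listed at 0.

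Values listed at 0 and values held mainly by 1 sample also occurred elsewhere in the class. Among the 79 loci 41 were listed at 0 in at least 1 sample, against 0 of 71 annotated long loci and 5 of 137 extended loci, and 12 held at least 90% of their summed FPKM in 1 sample. The highest value was in control replicate 1 for 26 loci and in air-dried replicate 1 for 27, and in the other 4 samples for 3 to 11. Control replicate 1 was also listed at 0 for 33, more than the 8 to 15 of the other samples. The groups did not overlap in 5 loci (6.33%), beside 30.4% of all tested loci. The lowest adjusted p by limma in the class was 0.121, at a locus on chromosome 3 (1857784 to 2018120) with 1.80, 2.25 and 1.71 FPKM in control and 0.845, 1.16 and 1.17 FPKM in air-dried leaves.

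Among the 287 expressed loci, the 5 of largest span were 4 extended loci and 1 without a known transcript. The last, on the minus strand of chromosome 19 (13739642 to 14042232), had 2097, 285 and 128 FPKM in control and 483, 58.7 and 61.5 FPKM in air-dried leaves, and the groups overlapped (limma adjusted p = 0.489). The chromosome 14 locus described above was next. That on the minus strand of chromosome 17 (82233 to 373296) had 80.9, 60.7 and 29.9 FPKM in control and 51.0, 31.1 and 37.2 FPKM in air-dried leaves. Of its FPKM 43.1% lay in transcripts of 15000 bases or more. One on the minus strand of chromosome 16 (2317512 to 2606840) had 14.2, 9.74 and 9.02 FPKM in control and 10.6, 11.02 and 9.22 FPKM in air-dried leaves. Groups overlapped at both.

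The fifth, on the plus strand of chromosome 3 (16232723 to 16521829), held almost none of its FPKM in a long transcript. It had 1169, 1172 and 913 FPKM in control and 939, 833 and 724 FPKM in air-dried leaves, and its transcript of 289107 bases held 0.00823% of this, with the rest in a known transcript of 1655 bases. The groups overlapped and the locus did not pass (limma log2 fold change -0.38, SE 0.17, adjusted p = 0.279).

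Some long-span loci changed hardly at all in mean log2(FPKM + 1). With at least 10 FPKM, the smallest change was at an extended locus on the minus strand of chromosome 10 (19434542 to 19457767), with 468, 562 and 437 FPKM in control and 535, 507 and 424 FPKM in air-dried leaves. It was followed by an annotated long plus-strand locus on chromosome 12 (8444937 to 8463683), with 15.8, 13.5 and 15.4 FPKM in control and 13.8, 13.9 and 16.9 FPKM in air-dried leaves. Annotated long loci on chromosome 3 (14972527 to 14992630) and chromosome 6 (25667526 to 25684642) had means of 13.1 and 13.2 and of 13.7 and 13.8 FPKM in control and air-dried leaves. The third by size of change, on scaffold_162 (19721 to 43364), had wide groups and means of 71.1 and 66.1 FPKM, from 12.8 to 118 FPKM in control and from 27.0 to 137 FPKM in air-dried leaves. So small changes came with narrow groups in some loci and wide ones in others.

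Loci nearest the limits of the rule are given as values only. At the limit of 1 FPKM, close levels follow from the choice of loci. The 3 just inside spanned 15014, 15022 and 15025 bases with means of 5.56, 9.79 and 21.8 FPKM, and the 3 just outside spanned 14992, 14976 and 14948 bases with means of 6.05, 11.01 and 15.1 FPKM. By level, the lowest members had means of 1.06, 1.06 and 1.11 FPKM, and the highest loci left out had 0.996, 0.945 and 0.884 FPKM.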

How the data were processed

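Oligo(dT)-selected leaf RNA was sequenced as 100 bp pairs from TruSeq RNA libraries, a kit that does not mark strand, per the labels' protocols. Per the file headers, the authors deposited 1 FPKM value for each transcript and sample. FastQC, TopHat and Cufflinks are named in the submitters' processing notes. Versions, settings, genome build and gene models: not given in the sources used here. Coordinates are those of the deposited tables. All 6 files list the same 112919 transcripts, 45773 of them marked as known. The depth is unknown, whole reads were not recovered and no count test was run.

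FPKM was summed per locus. Differences were tested with limma 3.58.1 in R 4.3.3 on log2(FPKM + 1) with a variance trend, over loci averaging 1 FPKM or more, and in the same way over single transcripts. Both fits were tested on simulated data. Shorter loci were compared within 5 bins of mean FPKM, and weighted medians or shares are means of bin values weighted by the numbers of long-span loci. The top bin has no upper edge, and its median was 424 FPKM for long-span loci and 184 FPKM for shorter ones. The loci and rules were chosen with earlier results of these data known, and the classes by annotation after their values were seen. Loci named are the 4 rises and 6 falls, the 5 highest, the 5 longest, the 5 least changed with at least 10 FPKM and those next to the limits of span and level, with further annotated long loci added later. As the files give no gene names, no more than 2 rises and 2 falls carry their identifier here, and planned groups by product and marker genes could not be formed.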

Additional observations from a re-analysis of the deposited data

How the results depend on the processing

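The 10 called long-span loci (4 rose, 6 fell) were all kept with pseudocounts of 0.1 and 5, no filter or a minimum of 5 FPKM, size factors and no variance trend. Quantile normalization left 2 rises and 5 falls (7 of the 10), 2.44% of long-span loci beside 4.76% of all tested loci. Sample weights gave 15 rises and 13 falls (28), known transcripts alone 1 and 0 (1 of 108 loci), and only POPTR_ loci of 1000 bases or more 9 rises. The share called was 9.76% with sample weights, beside 14.8% of all tested loci. With known transcripts alone it was 0.926%, beside 4.23% of 17191 loci. With only POPTR_ loci of 1000 bases or more it was 5.23%, beside 10.1%. Leaving out control replicate 1 together with loci under 300 bases, added after the data were seen, gave 9 and 11 (20), or 6.97% beside 9.11% of all loci tested there. A limit of 12000 bases gave 9 rises and 18 calls among 477 loci (3.77%), beside 3.48% with the limit of 15000. Annotated span alone gave 0 rises and 1 fall (1 call) among 71 loci (1.41%). Over leaving out each sample, rises ran from 0 to 6, falls from 2 to 9, calls from 2 to 15 and the median log2 fold change from 0.0 to 0.0535. The causes of these shifts were not tested.

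Loci of 1000 to under 15000 bases gave 1278 calls, 312 to 1440 with a sample left out, 2754 with sample weights and 611 with known transcripts alone. All loci gave 1548 calls, 376 to 1738 with a sample left out, 3371 with sample weights and 727 with known transcripts alone. Called transcripts of long-span loci, 2, were 0 to 3 with a sample left out, 1 under quantile normalization and 7 with sample weights.

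With the replicate number as a block, 2 long-span loci were called (0 rises and 2 falls, the chromosome 13 pair), 0 of their transcripts, 230 of the shorter loci and 281 of all loci. These were 0.697% of long-span loci, 1.32% of the shorter loci and 1.23% of all tested loci. The other 8 calls ended under it (limma adjusted p from 0.0681 to 0.108). The labels do not say that equal numbers pair samples. Correlations of their deviations were 0.086, -0.176 and 0.169, and not every sample correlated best with its own number. Unknown depth, FPKM spread over overlapping models and missing strand limit what these values can show.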
